A study of Mus musculus with 6 samples.

Results

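Type IV collagen genes and the genes whose products modify and fold collagen were examined for GATA4 and GATA6 CUT&RUN regions in XEN cells, 10 of the 21938 protein-coding genes of the mouse annotation. They were chosen by name and not by any measured value: Col4a1, Col4a2, Col4a3, Col4a4, P4ha1, P4ha2, P4hb, Plod1, Plod2 and Serpinh1. A region was counted for a gene when it overlapped the gene body or the 50 kb to either side of any annotated transcription start site (TSS) of that gene by at least 1 bp. The genes lie at 8 loci, because Col4a1 and Col4a2, and likewise Col4a3 and Col4a4, are transcribed head to head from a common promoter and share a window.

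CUT&RUN cuts out the DNA around an antibody-bound protein with a tethered nuclease and reads the released fragments. The series holds 3 GATA4 and 3 GATA6 libraries from XEN cells, which are cultured cells of extraembryonic endoderm, the lineage that descends from the primitive endoderm of the blastocyst. All 6 libraries came from 500000 cells a reaction of the 3F2 line, which carries a Col1a1 TetO-OKSmCh allele, the R26 M2rtTA transactivator and an Oct4-GFP reporter, so that both groups share a doxycycline-inducible cassette for OCT4, KLF4 and SOX2 and differ by the antibody. The 3F2 line limits the data to 1 derivation, and the labels name no treatment and no separate cultures, so p-values measure the spread between these libraries, which may be technical. The study's methods text also names the 3F6 line and another number of replicates, and the sample labels were followed here.

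Each library list held 42446 to 49597 called regions, with a median maximum signal of 4 in every list and 75.7% to 83.0% of regions at a maximum of 5 or less. The combined list of a factor, which joins the overlapping regions of its libraries and keeps those that hold a call of all 3, had 8282 regions for GATA4 and 5170 for GATA6. The labels give the same planned read number for every library, and the signal was not scaled for depth. Signal was therefore ranked within a list, as the percentile of a region's total signal among all regions of that library, and was not compared between lists. The lists hold no expression values, so the endoderm identity of the cells was not checked against markers and binding near a gene is not a measure of its expression.

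Type IV collagen is the network-forming collagen of basement membranes. Col4a1 and Col4a2 encode the chains of the form found in nearly every basement membrane, including Reichert's membrane, which parietal endoderm secretes in large amounts, while Col4a3 and Col4a4 encode chains of a form restricted to sites such as the kidney glomerulus. In the endoplasmic reticulum, prolyl 4-hydroxylase (catalytic subunits P4ha1 and P4ha2, with the disulphide isomerase P4hb as partner) stabilises the collagen triple helix, the lysyl hydroxylases Plod1 and Plod2 prepare lysines for glycosylation and cross-linking, and the chaperone HSP47, the product of Serpinh1, holds the folded helix. GATA4 and GATA6 are zinc-finger transcription factors of the primitive endoderm that recognise closely related DNA motifs built around GATA.

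At each locus with a combined region whose nearest TSS was that of a gene of the set, the sequence around the maximum signal of the highest-ranked such region is given below, to show the DNA that the values refer to. No region was called at the Col4a1 and Col4a2 promoter, so the highest region inside Col4a2 is shown for that locus. For P4hb the highest-ranked region outside the UTR was taken. Each sequence is the plus strand of mm10, 201 bp long, written 5′ to 3′. Capitals mark the GATA motif searched, which is AGATAA or any spelling of it that starts with T in place of A, ends with G in place of A, or does both. It was searched on both strands, so that the spelling TTATCT in the Col4a2 sequence is the motif on the minus strand. Overlapping matches were each counted.
Col4a2, intron, chr8:11393315-11393515: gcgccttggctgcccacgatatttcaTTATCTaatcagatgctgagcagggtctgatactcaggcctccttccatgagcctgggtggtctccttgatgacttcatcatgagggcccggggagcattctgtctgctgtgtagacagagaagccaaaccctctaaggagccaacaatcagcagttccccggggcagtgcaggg
P4ha1, intron, chr10:59346708-59346908: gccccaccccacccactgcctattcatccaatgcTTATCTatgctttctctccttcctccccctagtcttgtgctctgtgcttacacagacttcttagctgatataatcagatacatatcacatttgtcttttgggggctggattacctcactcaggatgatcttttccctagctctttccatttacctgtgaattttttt
P4ha2, intron, chr11:54102702-54102902: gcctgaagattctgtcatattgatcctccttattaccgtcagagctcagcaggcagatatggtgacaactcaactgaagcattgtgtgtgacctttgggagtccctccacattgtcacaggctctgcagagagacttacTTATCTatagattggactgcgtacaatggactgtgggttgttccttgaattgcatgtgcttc
P4hb, intron, chr11:120565173-120565373: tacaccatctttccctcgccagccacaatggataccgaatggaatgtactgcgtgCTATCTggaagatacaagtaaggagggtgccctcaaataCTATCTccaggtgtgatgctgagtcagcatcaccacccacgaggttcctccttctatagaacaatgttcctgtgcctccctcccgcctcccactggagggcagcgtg
Plod1, upstream, chr4:147937524-147937724: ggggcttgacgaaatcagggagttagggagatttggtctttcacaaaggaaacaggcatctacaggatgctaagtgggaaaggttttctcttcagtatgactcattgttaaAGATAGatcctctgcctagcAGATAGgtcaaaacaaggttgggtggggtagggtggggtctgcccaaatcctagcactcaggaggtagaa
Plod2, intron, chr9:92584193-92584393: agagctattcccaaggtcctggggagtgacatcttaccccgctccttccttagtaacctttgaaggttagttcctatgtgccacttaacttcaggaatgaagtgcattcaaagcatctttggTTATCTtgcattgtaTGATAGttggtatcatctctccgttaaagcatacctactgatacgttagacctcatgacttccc
Serpinh1, upstream, chr7:99353973-99354173: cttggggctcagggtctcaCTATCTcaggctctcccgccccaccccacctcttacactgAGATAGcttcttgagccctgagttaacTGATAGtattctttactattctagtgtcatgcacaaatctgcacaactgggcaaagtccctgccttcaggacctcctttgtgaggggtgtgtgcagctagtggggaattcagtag
The Serpinh1 sequence held 3 matches, those of P4hb, Plod1 and Plod2 held 2 each, and the other 3 sequences held 1 each.

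Most of the 10 genes had combined regions of both factors in their windows, and the exceptions were the collagen genes Col4a1, Col4a3 and Col4a4. A GATA4 combined region lay in the window of 8 of the 10 genes, against 48.2% of all protein-coding genes, and a GATA6 combined region in the window of 7 of 10, against 38.3%. Regions of both factors were found at 7 of 10 genes (33.8% of all genes), and neither factor had a combined region at 2 of 10, Col4a3 and Col4a4 (47.3% of all genes). The median number of combined regions per window was 2.5 for GATA4 and 1 for GATA6 over the 10 genes, and 0 for both factors over all genes. The windows differ in length, with a median of 143360 bp for the 10 genes and 104245 bp for all genes, and longer windows can hold more regions.

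Altogether the windows held 25 GATA4 and 18 GATA6 combined regions. The nearest TSS belonged to a gene of the set for 19 of the 25 GATA4 regions and for 10 of the 18 GATA6 regions. The others were nearest to neighbouring genes, namely Ppp1r27, Nppb, Gdpd5 and Rab20 for GATA4 and Pcyt2, 2510039O18Rik, Gdpd5 and Rab20 for GATA6. Binding within 1 kb of a TSS was seen at 4 genes for GATA4, namely P4ha1, P4hb, Plod1 and Serpinh1, against 19.8% of all genes, and at 3 genes for GATA6, namely P4ha1, P4hb and Serpinh1, against 13.8% of all genes. No type IV collagen gene was among them.

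**Figure D1:**
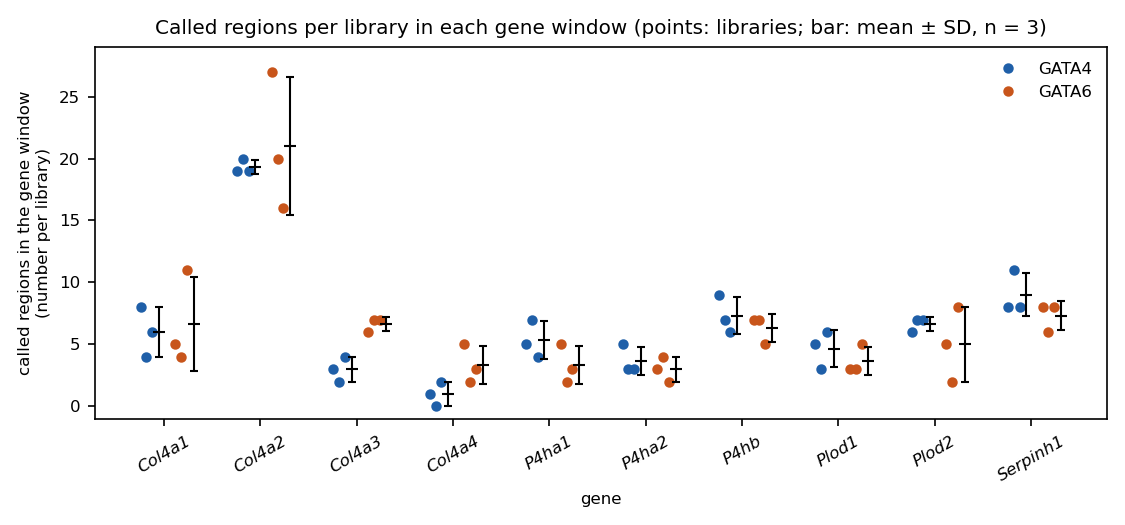
Number of called regions per library (vertical axis) in the window of each of the 10 genes (horizontal axis), with 3 GATA4 libraries in blue, 3 GATA6 libraries in orange, and bars giving the mean ± SD. Col4a2 had the most regions in every library (16 to 27), and the groups do not overlap at Col4a3 alone, where GATA4 libraries had 2 to 4 regions and GATA6 libraries 6 or 7.

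The 3 libraries of each factor gave similar numbers of regions over the whole set. The GATA4 libraries had 68, 63 and 63 called regions in the windows, and the GATA6 libraries 69, 54 and 65. The GATA6 values span the GATA4 values. The means were 64.7 ± 2.89 and 62.7 ± 7.77 (SD, n = 3 each), a difference of 2 regions that was smaller than the spread between libraries (two-sided exact permutation test, p = 0.9, smallest possible p = 0.1). The sign of this difference was set by GATA6 replicate 2, without which the GATA4 mean was lower (difference -2.33), and it also turned when the counts were taken per 10000 regions of each library (-0.642).

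At most genes the ranges of the GATA4 and GATA6 libraries overlapped. For no gene of the 10 did all GATA4 libraries exceed all GATA6 libraries, which was the case for 5.36% of all genes, and for 1 gene, Col4a3, all GATA6 libraries exceeded all GATA4 libraries, which was the case for 1.49% of all genes. The count of genes whose groups do not overlap rested on single libraries: Col4a4 joined Col4a3 when GATA4 replicate 3 or GATA6 replicate 2 was left out, P4ha1 separated with GATA4 above when GATA6 replicate 1 was left out, and Plod2 did so when GATA6 replicate 3 was left out. Each of these settings gave 2 genes in place of 1. Leaving out a library can only keep or add such genes, and the share of all genes under these settings is not given here.

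Col4a1 and Col4a2 carried GATA4 and GATA6 regions inside the Col4a2 gene body, and none at their common promoter. Col4a1 (chr8:11198423-11312826, minus strand) and Col4a2 (chr8:11312805-11449287, plus strand) have outermost start sites 21 bp apart, and their first transcribed bases overlap. The Col4a1 window held 8, 4 and 6 called regions in the GATA4 libraries and 5, 4 and 11 in the GATA6 libraries, ranges that overlap (exact permutation p = 0.9). The Col4a2 window held 19, 20 and 19 regions in the GATA4 libraries and 27, 20 and 16 in the GATA6 libraries, with GATA6 replicate 1 highest and replicate 3 lowest (exact permutation p = 0.8).

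These counts have to be read against the chromosome on which the pair lies. Chromosome 8 carried 2.88 to 3.81 times as many called regions per Mb as the autosomes other than 8, 14 and 19 in the 6 libraries, and 2.17 times (GATA4) and 2.95 times (GATA6) as many combined regions. Chromosomes 14 and 19, left out of this comparison, were also dense. They had 36.2 to 44.1 and 40.5 to 47.3 called regions per Mb, against 43.0 to 51.7 on chromosome 8. Combined regions per Mb were more on chromosome 19 (8.55 GATA4, 6.66 GATA6) than on chromosome 8 (6.34 and 4.98). A combined region was found in the window of 74.6% (GATA4) and 70.3% (GATA6) of the genes of chromosome 8. Against the density of its own chromosome, the Col4a1 window held 0.628 times (GATA4) and 0.695 times (GATA6) as many called regions per Mb, and the Col4a2 window 1.79 and 1.94 times as many. The part of the high density of chromosome 8 in the Col4a2 counts was not tested.

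Of combined regions, Col4a1 had 2 for GATA4 and 0 for GATA6, and Col4a2 had 6 and 7. As many GATA4 regions as at Col4a2, or more, were found at 9.90% of the genes of chromosome 8, and as many or more GATA6 regions at 2.79%. The Col4a2 window is 228305 bp long, against a median of 103904 bp for the genes of chromosome 8, and longer windows can hold more regions. Of the Col4a2 regions, 2 for GATA4 and 4 for GATA6 lay nearest to Rab20, beyond the 3′ end of Col4a2, and entered its window through an annotated internal start site. That leaves 4 GATA4 and 3 GATA6 regions within Col4a2, all with their maximum in an intron.

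The strongest of these was an intronic region of Col4a2 called in all 6 libraries (chr8:11392543-11394007). Its maximum signal was 21, 14 and 24 in the GATA4 libraries and 8, 10 and 12 in the GATA6 libraries, and its total signal ranked at or above the 98.0th percentile of every list. Both factors thus placed it among their highest regions, and the midpoint of the GATA4 region lies 80602 bp into the gene. The centres of maximum signal of 5 libraries fell close together, and that of GATA6 replicate 3 lay at -438 bp from the median of the 6. The GATA motif shown above starts at -74 bp from the GATA4 maximum. No match was found within 100 bp of the GATA6 maximum, which was taken from GATA6 replicate 3.

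A further intronic region of Col4a2 was also called in all 6 libraries (chr8:11419377-11420089), with maximum signals of 9, 12 and 8 for GATA4 and 7, 4 and 9 for GATA6. Its rank was high in the GATA4 libraries (92.8 to 96.4) and in GATA6 replicate 1 (96.0), but 36.6 and 4.1 in GATA6 replicates 2 and 3, where a narrower stretch was called. No GATA motif was found within 100 bp of the maximum of either factor. A region in the 5′ part of the same gene, 47918 bp from the outermost TSS (chr8:11360723-11361241), had maxima of 6, 10 and 6 for GATA4 and was called in GATA6 replicates 2 and 3 (5 and 9) but not in replicate 1. It lies in both the Col4a1 and the Col4a2 window and is the combined region nearest to their promoter.

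At 3 places of the pair, all libraries of 1 factor and none of the other called a region. These were 2 for GATA4 and 1 for GATA6, of 85 merged regions in the windows of the pair. In the whole series they were 748 and 186 of 201994. A GATA4 region in a Col4a1 intron (chr8:11233456-11234402) had maxima of 4, 5 and 3 and a mean rank of 37.4, the lowest of the 25 GATA4 regions, and lay 1017 bp from an internal TSS of Col4a1. A GATA4 region in a Col4a2 intron (chr8:11399686-11400394) had maxima of 5, 5 and 6 and ranks of 30.0, 36.7 and 91.5, so that replicate 3 placed it far higher than the others. A GATA6 region in another intron (chr8:11430507-11431100) had maxima of 8, 5 and 5 and ranks of 44.6, 39.5 and 46.7. A region missing from a library cannot be told apart here from a region just under the calling threshold.

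No library called a region across the promoter that the pair shares. The stretch without any region of the 6 libraries, chr8:11238705-11355907, is 117203 bp long, reaching 74100 bp below and 43103 bp above the Col4a2 TSS. Col4a1 and Col4a2 are the only protein-coding genes with a TSS in it. The median distance between neighbouring regions of the 6 libraries on chromosome 8 was 2530 bp, and of 27116 such intervals 3 without undetermined bases, this interval included, and 3 with undetermined bases were at least as long. The stretch contains no undetermined bases and its GC content is 47.8%. The authors removed reads in blacklisted parts of the genome, and whether this stretch was among them was not tested. For that reason the empty promoter cannot be read as absence of GATA4 or GATA6.

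**Figure D2:**
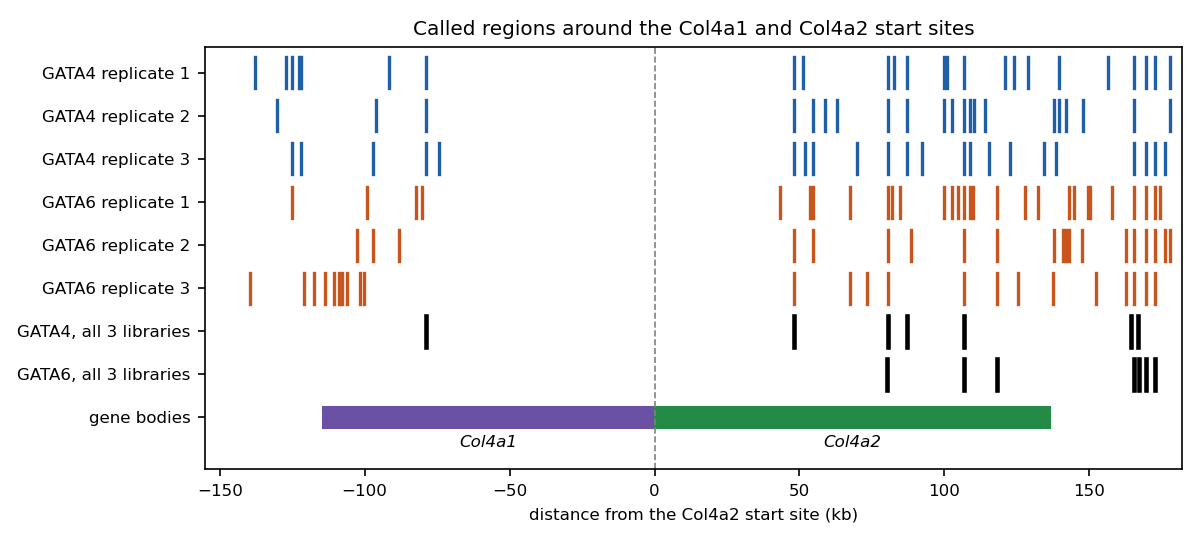
Called regions in each of the 6 libraries (rows, blue for GATA4 and orange for GATA6), combined regions (black) and gene bodies, by distance from the Col4a2 TSS in kb (horizontal axis). The stretch from 74100 bp below to 43103 bp above the TSS is empty in every library, and columns of ticks inside Col4a2 mark the regions called in all 6.

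Col4a3 and Col4a4, the chains of the restricted form, had no combined region of either factor, as did 47.3% of all genes. Their start sites (Col4a3, chr1:82586921-82722059, plus strand; Col4a4, chr1:82448423-82586849, minus strand) are 72 bp apart. The Col4a3 window held 3, 2 and 4 called regions in the GATA4 libraries and 6, 7 and 7 in the GATA6 libraries, so that every GATA6 library lay above every GATA4 library (exact permutation p = 0.1, the smallest possible). The Col4a4 window held 1, 0 and 2 regions for GATA4 and 5, 2 and 3 for GATA6, which meet at 2 regions (exact permutation p = 0.2). Counted once, the 2 windows held 3.67 ± 1.53 regions for GATA4 and 7.33 ± 0.577 for GATA6 (SD, n = 3 each, exact permutation p = 0.1).

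These regions were mostly unshared between libraries. Of 28 merged regions in the 2 windows, 25 (89.3%) were called in 1 library, against 83.2% of the merged regions of the whole series. Maximum signals ranged from 2 to 8. The median maximum was 3 to 4 in each library, beside 4 over each whole list, and the median rank 27.1 to 53.2. The GATA6 excess was thus made of regions at different positions, of low maximum as most called regions are. None was called in all libraries of a factor. The place called in most libraries (chr1:82724602-82725154, GATA4 replicates 2 and 3 and GATA6 replicates 2 and 3) lies at the TSS of Mff, a gene of mitochondrial fission beyond the end of Col4a3. At the common promoter, a single library, GATA6 replicate 2, called a region 328 bp inside Col4a3 with a maximum of 4, and the next region on the Col4a4 side was 15658 bp away.

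**Figure D3:**
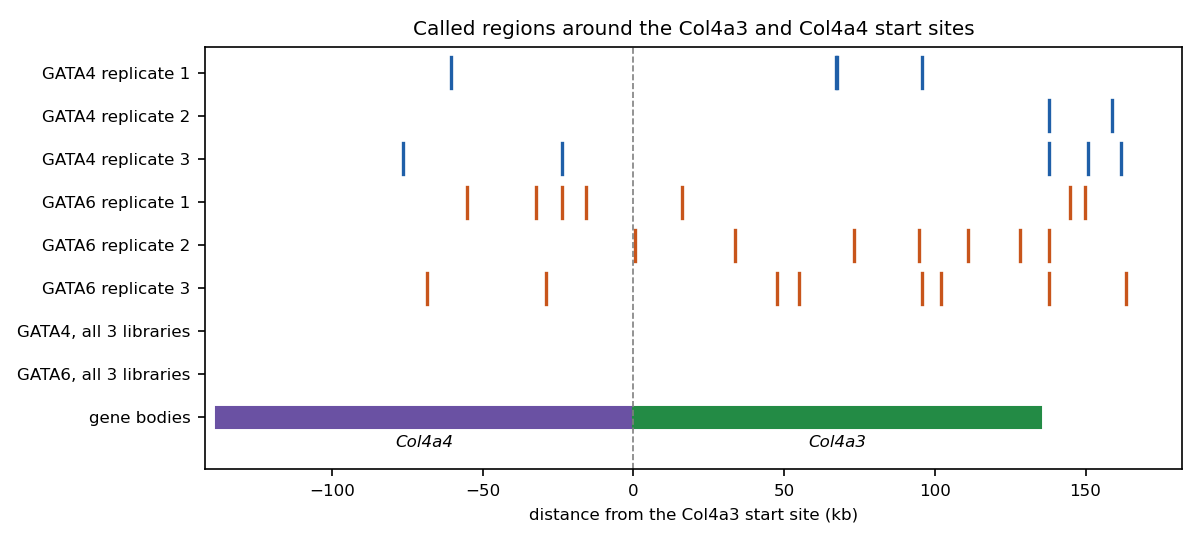
Called regions in each of the 6 libraries (rows) and gene bodies, by distance from the Col4a3 TSS in kb (horizontal axis), with rows for combined regions that are empty for both factors. Ticks seldom align between libraries, 25 of 28 merged regions being called in 1 library, against 83.2% of the merged regions of the whole series.

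The prolyl 4-hydroxylase genes had regions of both factors close to or at their start sites. P4ha1 (chr10:59323296-59373304, plus strand), a catalytic subunit, held 5, 7 and 4 called regions for GATA4 and 5, 2 and 3 for GATA6 (exact permutation p = 0.3). P4ha2 (chr11:54100095-54131665, plus strand), another catalytic subunit, held 5, 3 and 3 for GATA4 and 3, 4 and 2 for GATA6 (p = 0.7 by the same exact test). P4hb (chr11:120560298-120573253, minus strand), the partner subunit, held 9, 7 and 6 for GATA4 and 7, 7 and 5 for GATA6 (p = 0.6 by the same exact test). In each gene the libraries of the 2 factors overlapped.

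At P4ha1 the region at the TSS (chr10:59322186-59323795) was called in all 6 libraries. The GATA4 libraries reached maxima of 5, 4 and 7 there and the GATA6 libraries 11, 7 and 8, with ranks that ran from 31.7 to 98.1 for GATA4 and from 64.1 to 99.5 for GATA6. No GATA motif was found within 100 bp of either maximum. Of the other combined regions, both GATA4 and both with their maximum in an intron, the region at chr10:59346477-59347236 had maxima of 6, 5 and 6 and was called in GATA6 replicates 1 and 3. The region at chr10:59348095-59348734 had maxima of 9, 5 and 8 and was called in GATA6 replicate 2. These had 1 and 2 GATA motifs, so that the motif was found in the intronic regions of this gene and not at its TSS.

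P4ha2 had 1 combined region of each factor, and they overlapped. The region (chr11:54102247-54103249) lies in an intron and starts 1002 bp from the nearest TSS, just outside the limit of 1 kb. Maxima were 10, 11 and 8 for GATA4 and 6 in each GATA6 library. It ranked between 96.2 and 98.1 in the GATA4 lists and between 73.4 and 85.7 in the GATA6 lists. It held 1 GATA motif within 100 bp of the maximum of either factor.

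P4hb had 4 GATA4 and 3 GATA6 combined regions. The region at its TSS (chr11:120572624-120573656) had maxima of 10, 8 and 9 for GATA4 and 9, 9 and 6 for GATA6, ranked at 93.4 or higher in all 6 libraries, and held no GATA motif. The region in an intron (chr11:120563949-120565565), with maxima of 12, 12 and 9 for GATA4 and 13, 6 and 7 for GATA6, held 2 motifs. Between them, 693 bp from the nearest TSS, a GATA4 region (chr11:120570678-120572148) had maxima of 6, 8 and 5, ranks of 91.9 to 94.6 and 2 motifs, and was called in no GATA6 library. It was the highest-ranked of the 3 merged regions in all windows that were called in every GATA4 and no GATA6 library. The remaining regions lay nearest to Ppp1r27 (GATA4) and at the TSS of Pcyt2 (GATA6).

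The lysyl hydroxylase genes had more GATA4 than GATA6 combined regions, 2 against 1 at Plod1 and 4 against 1 at Plod2, although the counts per library overlapped. The GATA4 combined list is also the longer 1 over the genome, with 8282 regions against 5170 for GATA6. Plod1 (chr4:147909753-147936767, minus strand) held 5, 3 and 6 called regions for GATA4 and 3, 3 and 5 for GATA6 (exact permutation p = 0.7). Plod2 (chr9:92542223-92608428, plus strand) held 6, 7 and 7 for GATA4 and 5, 2 and 8 for GATA6 (exact permutation p = 0.6), and GATA6 replicate 2 was the low library. Without that replicate, Plod2 had 3 GATA6 combined regions in place of 1 and Plod1 had 2. Plod1 also had 2 without GATA6 replicate 1. Leaving out a library lowers the number of libraries required from 3 to 2, so more regions can qualify.

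At Plod1 a GATA4 region 490 bp upstream of the TSS (chr4:147937257-147937774) had a maximum of 8 in each of the 3 libraries and was called in GATA6 replicate 1 (maximum 4). Its ranks were 88.8, 81.7 and 42.9, so that equal maxima did not give equal totals, and it held the 2 motifs shown above. The GATA6 combined region in the window (chr4:147940668-147941158) lies at the TSS of the neighbouring gene 2510039O18Rik, 3901 bp from the Plod1 TSS, with maxima of 10, 5 and 10. The other GATA4 region lies at the TSS of Nppb, the natriuretic peptide gene, at the edge of the window, with maxima of 16, 12 and 14. No combined region fell inside the Plod1 gene body.

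Plod2 had the most widely spread GATA4 regions of the processing genes. The region at 10140 bp upstream of the TSS (chr9:92531557-92532083) had a maximum of 11 in each GATA4 library, was called in GATA6 replicate 3, and held 4 GATA motifs, the most of any combined region in the windows. Inside the gene, the region at chr9:92548628-92549069 had maxima of 5, 9 and 7, that at chr9:92551768-92552366 had 11, 7 and 8, and that at chr9:92583792-92584549 had 12, 16 and 6. All of these lay in introns, more than 1 kb from any TSS of the gene. The region at chr9:92551768-92552366 was the place called in every GATA6 library too, with maxima of 6, 7 and 4 and a mean rank of 37.1, the lowest of the 18 GATA6 regions. The region at chr9:92583792-92584549 had ranks of 98.2, 98.1 and 91.0 for GATA4, and GATA6 replicates 1 and 3 called it with maxima of 8 and 5.

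Serpinh1, the gene of the collagen chaperone HSP47, had the highest-ranked GATA4 region of the set at its TSS. Serpinh1 (chr7:99345376-99353239, minus strand) held 8, 11 and 8 called regions for GATA4 and 8, 6 and 8 for GATA6 (exact permutation p = 0.6). This was 6.27 (GATA4) and 5.54 (GATA6) times the density of regions on its chromosome, the highest ratio among the 8 loci for both factors. The ratios for P4hb were 3.40 and 3.40, those for P4ha1 3.38 and 2.38, and those for Plod1, Plod2 and P4ha2 between 1.41 and 2.80. The windows of short genes are centred on a TSS, and called regions are not spread evenly along a chromosome, so these ratios describe the loci and were not tested.

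The region at the Serpinh1 TSS (chr7:99352743-99355414) had maxima of 16, 18 and 15 for GATA4 and 10, 7 and 7 for GATA6. Its ranks were 98.9 to 99.9 in the GATA4 libraries and 95.5 to 98.8 in the GATA6 libraries, and the centres of the maximum fell within 141 bp in the 6 libraries. Its maximum lay upstream of the gene and held 3 GATA motifs for both factors. A further region 6849 bp upstream (chr7:99360088-99360653) was called in all 6 libraries with maxima of 10, 8 and 6 for GATA4 and 8, 7 and 8 for GATA6, and held 1 motif. The other combined regions of the window, 2 for each factor, lay at the start of Gdpd5, with maxima of up to 16 in the GATA4 libraries and up to 10 in the GATA6 libraries.

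**Figure D4:**
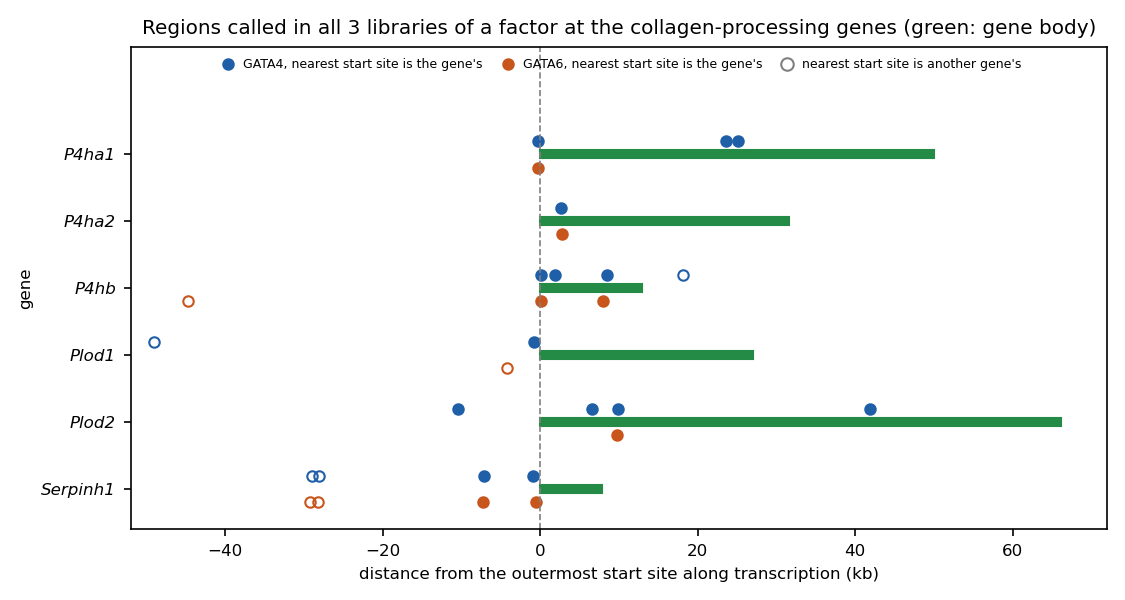
Combined regions at the 6 collagen-processing genes (rows) by distance of the region midpoint from the outermost TSS along transcription, in kb, with GATA4 above and GATA6 below each green gene body and open circles for regions nearest to another gene. P4ha1, P4hb and Serpinh1 have regions of both factors at the TSS, and the regions of Plod2 run from -10403 bp to 41948 bp.

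GATA4 and GATA6 regions of these genes overlapped at shares close to those of the whole lists. Of the 25 GATA4 regions, 13 overlapped a GATA6 combined region, against 45.2% of all GATA4 regions, and of the 18 GATA6 regions, 13 overlapped a GATA4 combined region, against 72.3% of all GATA6 regions. Merged over the 6 libraries, the windows held 195 regions. Of these, 137 (70.3%) were called in 1 library, against 83.2% of 201994 in the whole series. Another 12 of the 195 were called in all 6 libraries, against 3793 of the 201994. The regions called in all 6 were nearest to a gene of the set in 9 places, namely P4ha1, P4ha2, Plod2 and, with 2 each, Col4a2, P4hb and Serpinh1. Every GATA4 library and no GATA6 library called 3 of the 195 merged regions, against 748 of the 201994. Every GATA6 library and no GATA4 library called 1 of the 195, against 186 of the 201994.

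The median rank of the 25 GATA4 regions was 89.0, with a range of 37.4 to 99.4, beside 85.0 for all GATA4 combined regions. For the 18 GATA6 regions it was 77.8, with a range of 37.1 to 99.2, beside 83.4. GATA4 regions of the set thus stood a little above and GATA6 regions a little below the median of their lists, and these ranks were not tested.

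**Figure D5:**
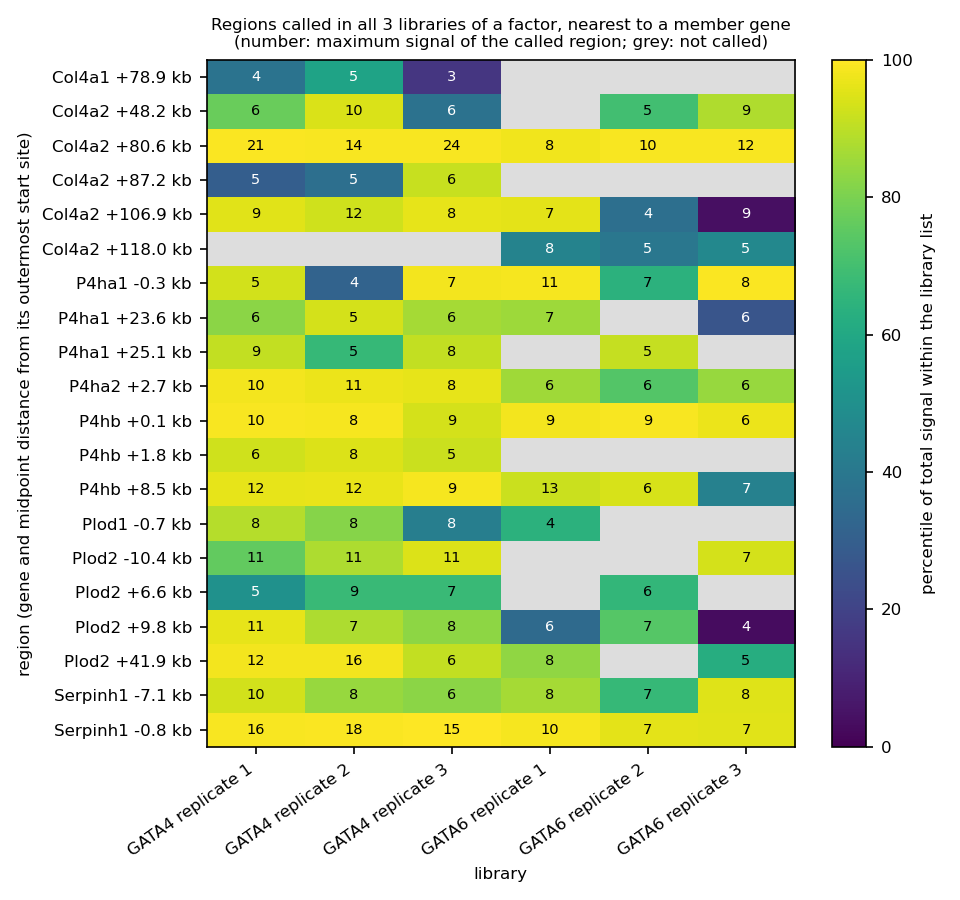
Percentile of total signal within each library list (colour, 0 to 100) for the combined regions nearest to a gene of the set (rows, gene and midpoint distance from its outermost TSS along transcription) in the 6 libraries (columns), with the maximum signal printed in each cell and grey where no region was called. The Col4a2 region at 80.6 kb and the P4hb and Serpinh1 regions at the TSS are high in every library. Of the 20 rows, 19 are GATA4 combined regions, which by their choice have no grey cell in the GATA4 columns.

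The GATA motif was found within 100 bp of the maximum signal in 16 of the 25 GATA4 regions, against 46.0% of all GATA4 combined regions, and in 7 of the 18 GATA6 regions, against 36.3% of all GATA6 combined regions. Restricted to regions nearest to a gene of the set, the numbers were 14 of 19 and 5 of 10. Of these, 11 of 14 GATA4 and 4 of 7 GATA6 regions more than 1 kb from a TSS held the motif. The share among all combined regions at that distance is not given here, so these numbers cannot be read as an excess. Within 1 kb of a start site, matches were found at Serpinh1, at Plod1 and in the P4hb region at 693 bp, and none in the regions that overlap the TSS of P4ha1 and P4hb. The count depended on where the search was centred: over both factors 23 regions held the motif at the maximum signal and 15 did at the region midpoint. The whole-list shares at the midpoint were 39.9% (GATA4) and 33.1% (GATA6). Within 250 bp of the maximum, 31 regions held the motif, beside 60.9% (GATA4) and 53.6% (GATA6) of the whole lists. The GATA4 and GATA6 regions share much of their sequence, so the 2 counts are not independent, and a match is a description and not a binding site.

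Other genes of the collagen pathway were listed by function, 28 in all, taking in further type IV chains, hydroxylases, glycosyltransferases, export factors and cross-linking enzymes. A GATA4 combined region lay in the window of 16 of the 28 (48.2% of all genes) and a GATA6 combined region in the window of 14 (38.3% of all genes). All 14 with GATA6 also had GATA4, and 12 had neither (47.3% of all genes). The median number of combined regions was 1 for GATA4 and 0.5 for GATA6, between the values of the 10 genes and of all genes.

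Within 1 kb of a TSS, GATA4 combined regions were found at 7 of the 28 (19.8% of all genes) and GATA6 combined regions at 3 (13.8% of all genes), numbers not far from those shares. Both factors were found there at Plod3, a lysyl hydroxylase that also adds glucose, at Colgalt1, the collagen galactosyltransferase, which lies on chromosome 8, and at P3h1, a prolyl 3-hydroxylase. GATA4 alone was found there at P3h4, at Ppib, which encodes cyclophilin B, at Mia3, whose product TANGO1 loads collagen for export, and at Sec23a, a component of the COPII coat. Their windows held between 1 (Sec23a) and 6 (Colgalt1) GATA4 and between 1 and 4 (Colgalt1) GATA6 combined regions. The genes with no combined region of either factor were the remaining type IV chains Col4a5 and Col4a6, the hydroxylases P4ha3 and P3h2, the lysyl oxidases Lox, Loxl1, Loxl2 and Loxl4, and Pxdn, Fkbp14, Mia2 and Tmem38b. Pxdn encodes peroxidasin, which cross-links type IV collagen outside the cell. The type IV chain genes without a combined region lie on chromosomes 1 and X. GATA4 combined regions numbered 2.93 per Mb on chromosome 1 and 0.591 on X, against 6.34 on chromosome 8 with Col4a1 and Col4a2. For GATA6 these densities were 1.91, 0.310 and 4.98. The autosomes other than 8, 14 and 19 had 2.93 (GATA4) and 1.69 (GATA6) per Mb. The part of chromosome density in the genes without a combined region was not tested.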

How the data were processed

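CUT&RUN lists of 6 XEN libraries (3 GATA4, 3 GATA6) were analysed as deposited. Per the study's methods, the authors aligned reads to mm10 with Bowtie2 2.3.4.1, removed duplicates, low-quality and mitochondrial alignments and blacklisted regions, and called regions in each library with SEACR 1.3. The deposited lists give the total and the maximum signal of each region, not scaled for depth, so the signal was ranked within lists only. No control library entered the calls as described. The deposited combined lists of 8282 and 5170 regions were recomputed with identical coordinates by merging overlapping regions of a factor's libraries and keeping those with a call in all 3. A combined region therefore spans the union of the calls and can reach beyond that of a single library.

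Genes and start sites came from GENCODE and bases from the mm10 genome (GRCm38). Windows were the gene body and 50 kb around every TSS, with an overlap of at least 1 bp. The exact permutation test (two-sided) was used between libraries, and per-gene counts were read beside all 21938 protein-coding genes. Motifs were searched within 100 bp of the centre of maximum signal of the library with the highest maximum. All 10 genes are named, every combined region in their windows is counted, and other pathway genes are named where a combined region lies within 1 kb of a TSS or where none lies in the window. The genes, the pathway list and the tests were chosen with earlier results of these data known. The interval, merging and motif searches were checked on simulated lists and sequences, and the permutation test on small sets with known answers. The sign-flip test used below was not checked. Tables were handled with pandas 2.3.3 under Python 3.11.15, tests run with scipy 1.17.1 and numpy 2.4.6, bases read with pysam 0.24.0, and plots drawn with matplotlib 3.10.9. Alternatives changed the windows, the assignment of regions, the libraries required, the strictness of the lists, the motif search and the libraries left out.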

Additional observations from a re-analysis of the deposited data

How the results depend on the processing

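Of 272 values under alternative settings, 206 kept the direction of a difference or, for a count, stayed near the reported value. A kept direction did not mean a close value: the difference of 2 below was 7.67 for regions with a maximum signal above 5. Of the 206, 151 were counts at single genes, including genes without any combined region. For the main results 55 values stayed, 14 moved and 3 reversed. The difference in called regions over the 10 genes (2) turned to -0.642 per 10000 regions of the library (exact permutation p = 0.4) and to -1 with lists of equal length (p = 0.9, exact), and ranged from -2.33 to 5.17 when each library was left out. With the replicate number as a block the difference was 2 (exact sign-flip p = 1, smallest possible 0.25). Same-numbered libraries did not deviate together (correlations of -0.0137, 0.0320 and -0.0284), so the numbers were not taken as pairs.

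The 25 GATA4 combined regions became 16 in gene bodies, 13 within 10 kb of a TSS and 42 when at least 2 of 3 libraries were required, and 30 to 32 when each library was left out. The 18 GATA6 regions became 9 in gene bodies, 8 within 10 kb, 10 where the nearest TSS was a gene of the set, 34 with at least 2 of 3 libraries, 9 in the stronger part of each list, and 21 to 25 when each library was left out. With a library of a factor left out, only 2 libraries had to call a region, so more regions could qualify. GATA4 regions overlapping GATA6 went from 13 of 25 to 25 of 42 with at least 2 of 3 libraries. The motif count fell from 23 to 15 at region midpoints, where the shares over the whole lists were lower too. Between 7 and 9 genes had a GATA4 region and between 5 and 9 a GATA6 region in these settings. Genes whose groups do not overlap numbered 1 to 2 when each library was left out, a step that can only keep or add such genes. Col4a3 gained its region, at the TSS of Mff, without GATA4 replicate 1 or GATA6 replicate 1, and Col4a1 gained a GATA6 region without GATA6 replicate 1.

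Read depth per library was not measured here. Most called regions had a maximum of 5 or less, and a region missing from a library is not shown to be unbound there. The causes of these shifts were not tested.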
